A study of Mus musculus with 6 samples.

Results

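The genes described here are the receptors and ligands of 3 axon guidance systems, namely the Eph receptors with their ephrin ligands, the Slit ligands with their Robo receptors, and the netrins with the receptors Dcc, neogenin (Neo1) and Unc5. Members were the protein-coding genes whose symbols belong to these families, chosen by name and not by any measured value, and all 39 were found among 36047 genes joined to the deposited transcripts. RNA sequencing was done on infarct tissue of 6 female C57BL6 mice aged 12 weeks, 48 h after ischemia/reperfusion (I/R), a temporary closure of a coronary artery. The LGK974 group (n = 3) received LGK-974 by daily gavage, which inhibits the acyltransferase Porcupine and thereby the secretion of Wnt proteins. The DMSO group (n = 3) received the vehicle. Both groups underwent I/R and no uninjured heart was part of the comparison, so it shows a difference between treatments within infarcted tissue and not the response to injury.

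Guidance systems were first described for growing axons and also act on blood vessels and migrating cells. An ephrin is tethered to the surface of one cell and binds an Eph receptor tyrosine kinase on its neighbor, and the signal runs into both cells. Ephrin-B2 marks arterial endothelium and EphB4 venous endothelium. Slits are secreted and repel cells that carry a Robo receptor, and Robo4 is the Robo of endothelial cells. Netrins are laminin-like secreted proteins that attract through Dcc and neogenin and repel through the Unc5 receptors.

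Library totals ranged from 41579787 to 80398211 estimated counts, and mitochondrial genes held 28.1 to 53.6% of them. The library of DMSO replicate 1 stood apart from the others. On the first principal component, which held 63.7% of the variance, it lay at 173 while the other 5 libraries lay between −91.7 and 45.2. It also held more counts on 1503 olfactory, vomeronasal and taste receptor genes, which are known mainly from sensory organs. Their median was 32.2 counts per kb in DMSO replicate 1, 11.6 in DMSO replicate 2 and 3.01 in DMSO replicate 3, against 11, 4.27 and 3.07 in the 3 LGK974 libraries. These families served as the background level of each library, and the comparisons of genes are given with and without DMSO replicate 1. They are called silent below, which was assumed and not tested gene by gene. The markers of the labelled tissue were present in every library, with the 12 cardiomyocyte markers summing to 42505 to 66128 CPM (counts scaled to library size).

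Levels between genes were compared per length as TPM, which divides by transcript length and by the library's sum. Ntn1, the founding netrin, had the highest mean level at 10.7 ± 4.38 TPM (SD over 6 libraries), followed by its receptor Neo1 at 8.99 ± 2.97, Slit2 at 8.43 ± 2.73, Epha2 at 7.59 ± 1.78, Ephb4 at 6.93 ± 3.40, Slit3 at 6.75 ± 2.20, Robo4 at 6.24 ± 2.70, Efnb2 at 5.77 ± 3.26 and Efna1 at 5.56 ± 2.02. The ranges of neighbors in this order overlapped throughout, so the order of any 2 adjacent genes was not resolved. Ntn1 itself ranged from 4.91 to 17.9 TPM, and its rank among the 39 genes from 1 to 5. Efnb1, Epha4, Unc5b, Efna5, Epha5 and Robo1 followed with means of 4.78, 4.74, 4.58, 4.17, 3.53 and 3.17 TPM. Efnb3, Ntn4, Epha7, Ephb3, Unc5a, Ephb2, Unc5c and Robo2 had means from 2.97 down to 1.20 TPM. The other 16 genes had means under 1 TPM, from Epha1 at 0.903 down to Epha8 at 0.0468.

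In each of the 8 role classes 1 gene had the highest mean TPM, though not always in every library. Among the EphA receptors Epha2, a receptor of epithelial and endothelial cells, held 35.9% of the class's TPM and led it in 5 of 6 libraries. A transcript of 969 bases not annotated as coding held 25.9 to 57.8% of its counts. The coding transcript has 3913 bases, so division by length raises the short transcript's part in the TPM. Ephb4 held 59.1% of the EphB class and led it in 6 of 6 libraries. Efna1 held 51.4% of the ephrin-A ligands, Efnb2 42.7% of the ephrin-B ligands, Slit2 54.8% of the Slits and Robo4 57.4% of the Robo receptors. Slit2 led its class in 4 of 6 libraries, and Efna1, Efnb2 and Robo4 led theirs in 5 of 6. The netrins were led by Ntn1 with 76.5% and the netrin receptors by Neo1 with 52.1%, both in 6 of 6 libraries. The vascular members Ephb4, Robo4 and Efnb2 thus stood at the head of their classes by mean TPM.

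Many of the low genes were not above the upper range of the silent families. The 90th percentile of the silent families was 0.84 to 1.49 TPM in the LGK974 libraries and 4.64, 1.9 and 1.08 in DMSO replicates 1, 2 and 3. Only 5 of the 39 genes, Ntn1, Neo1, Slit2, Epha2 and Epha5, exceeded it in all 6 libraries, and 11 more did in 5 of 6. A group of 15 genes exceeded it in 0 libraries, namely Unc5c, Robo2, Epha3, Ephb1, Efna2, Epha10, Epha6, Dcc, Unc5d, Robo3, Slit1, Ntn3, Ntn5, Efna4 and Epha8. The levels of these genes thus lay within the range of silent genes in every library, but not all at the same place in it. Unc5c, Robo2, Epha3, Epha10, Dcc and Unc5d were above the median of the silent families in 6 of 6 libraries. The rest of this group were above it in 1 to 5 libraries, with Efna4 and Epha8 in 1. TPM also depends on what else a library holds, and LGK974 replicate 3, with the lowest mitochondrial share at 28.1%, had the highest TPM of Slit2 (13.1), Ephb4 (13.1), Robo4 (11.2), Efnb2 (12.3), Efna1 (9.18), Efnb1 (8.61) and Unc5b (12.0).

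**Figure D1:**
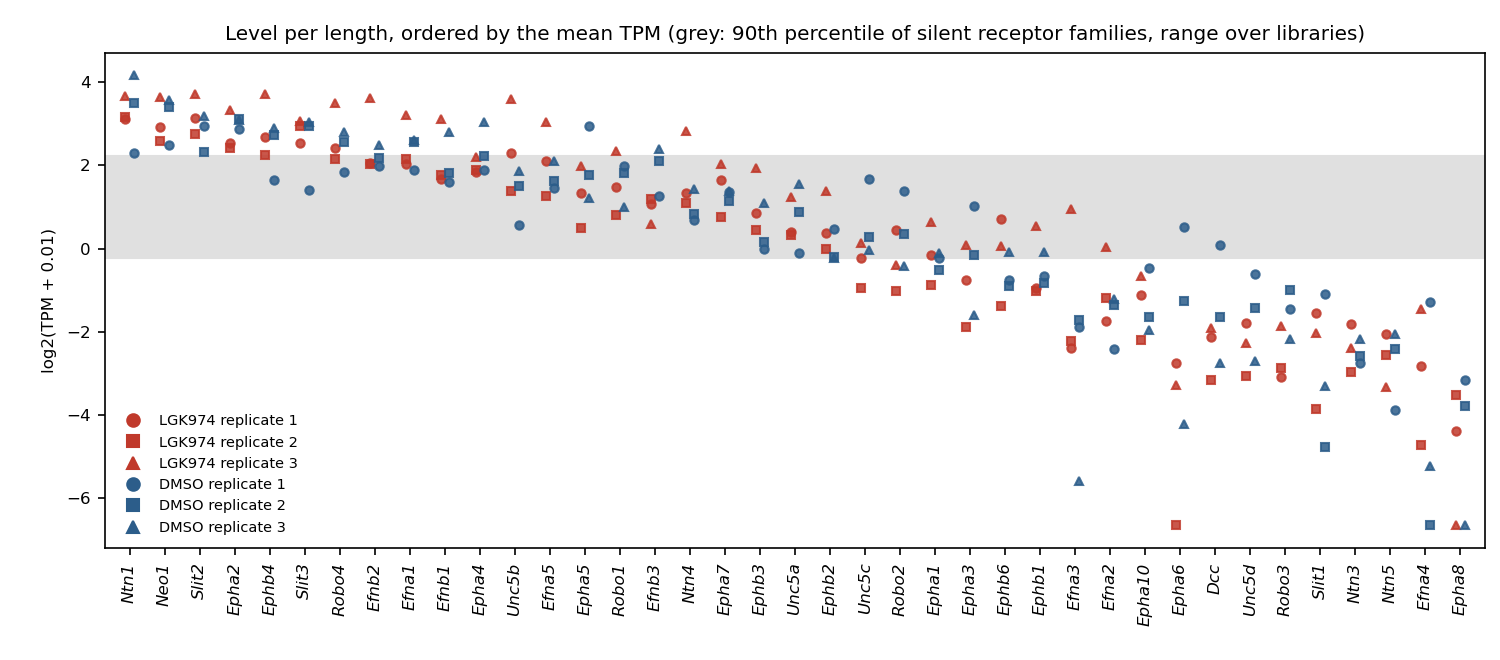
Levels of the 39 guidance genes per transcript length, on a log2 axis of TPM + 0.01, ordered by the mean over 6 libraries, with each library as a point. The grey band spans the 90th percentiles of the silent receptor families over the libraries (0.84 to 4.64 TPM), and Ntn1, Neo1, Slit2 and Epha2 are the genes with all 6 points above the band.

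The comparison of LGK974 with DMSO asked whether blocking Wnt secretion changed these genes in the infarct. Counts per gene were scaled to CPM with TMM factors and tested with edgeR's quasi-likelihood test over the 20094 genes that reached 10 counts in 3 or more libraries, and all 39 guidance genes entered it. At an adjusted p of 0.05 edgeR called 0 of the 39 genes, and 0% of all genes. DESeq2 also called 0 of them at that threshold, and 1.23% of the genes it gave an adjusted p. With no filter on low counts edgeR called 4 of the 39 genes (Epha5, Efnb3, Unc5b and Dcc) and 3.52% of all genes. At an unadjusted p under 0.05, 1 gene was higher (Unc5b) where 6.26% of all genes were, and 4 were lower (Efnb3, Epha5, Robo2 and Dcc) where 7.18% were. Groups did not overlap for 1 higher gene (Ephb3, background 10.7%) and 2 lower genes (Efnb3 and Robo3, background 7.27%). Both numbers in the higher direction were below the background share and those in the lower direction were near it. DESeq2 had 8 lower genes at an unadjusted p under 0.05 and 1 higher, where 9.46% and 3.64% of its genes were.

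The median log2 fold change of the 39 genes was −0.25, with 10 above 0 and 29 below, beside −0.13 for all tested genes. Without DMSO replicate 1 it was −0.15 over the 37 genes still tested, beside −0.02 for all genes. DMSO replicate 1 was the highest of the 6 libraries for 15 of 39 guidance genes (38.5%), beside 40.3% of all genes and 99.6% of the tested silent genes. Without that library 1 gene had an unadjusted p under 0.05 in the higher direction (Ephb6, background 7.12%) and 4 in the lower direction (Efnb3, Neo1, Ntn1 and Efnb1, background 3.89%), all from edgeR and none past the adjusted threshold, which 0.0108% of all genes passed. Groups then did not overlap for 4 higher and 7 lower genes, beside 16.9% and 11.9% of all genes. In bulk tissue, fewer cells of a type and less RNA per cell cannot be told apart. The p-values set each group difference against the spread between these mice, which edgeR estimates with help from all tested genes.

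**Figure D2:**
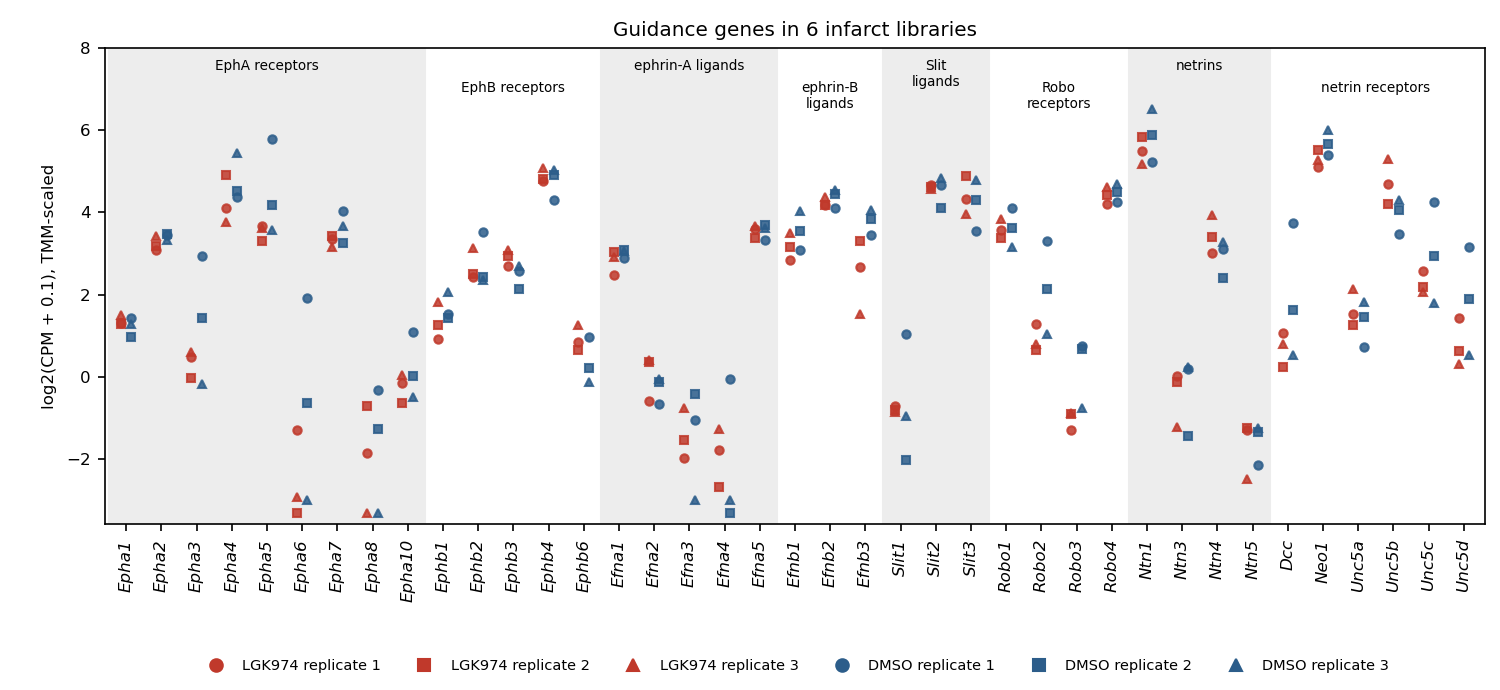
Each point is 1 library's TMM-scaled level of a guidance gene, as log2(CPM + 0.1), grouped by role, with LGK974 in red and DMSO in blue. The groups overlap for 36 of the 39 genes, and for Epha3, Epha5, Epha6, Robo2, Dcc, Unc5c and Unc5d the circle of DMSO replicate 1 lies above the other 5.

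The 9 EphA receptors bind mainly the membrane-anchored ephrin-A ligands, and 8 of 9 had a log2 fold change below 0. Epha5 (chromosome 5 of GRCm38, the build of all positions here, 84054761 to 84417382, minus strand), known from neurons, stood at 12.7, 9.76 and 12.3 CPM in the LGK974 mice and at 55.5, 18 and 11.9 in the DMSO mice. The high DMSO mean came from replicate 1, and replicate 3 lay inside the LGK974 range. Its log2 fold change was −1.29 (SE 0.519, unadjusted p = 0.0384, adjusted p = 0.368, edgeR), and −0.34 (SE 0.211) without DMSO replicate 1. Epha3 (chromosome 16, 63543534 to 63864175, minus strand), a receptor of embryonic mesenchyme and neurons, had the same pattern, with 1.30, 0.877 and 1.42 CPM against 7.59, 2.57 and 0.786. This gave −1.60 (SE 0.741) with all libraries and −0.46 (SE 0.538) without DMSO replicate 1. Epha6 had the lowest fold change of all, −3.58 (SE 1.81), from values of 0 to 0.306 CPM under LGK974 and of 3.69, 0.538 and 0.0246 under DMSO, and without DMSO replicate 1 it had too few counts to be tested.

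The EphA gene with the highest mean TPM was close between the groups. Epha2 (chromosome 4, 141301240 to 141329384, plus strand) stood at 8.39, 9.01 and 10.6 CPM under LGK974 and at 10.9, 11.1 and 9.92 under DMSO, with overlapping groups and a log2 fold change of −0.19 (SE 0.174, adjusted p = 0.585, edgeR). Epha4, which binds ephrins of both classes, ranged from 13.5 to 30.1 CPM under LGK974 and from 20.7 to 43.3 under DMSO, and Epha7 from 8.85 to 10.7 and from 9.43 to 16.3. Epha1, whose exons share 236 bases with Zyx on the other strand, was the 1 EphA gene above 0, at 0.13 (SE 0.327).

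Among the 5 EphB receptors, which bind the transmembrane ephrin-B ligands, 3 were above 0 and 2 below. Ephb3 (chromosome 16, 21204755 to 21223305, plus strand), a receptor known from gut epithelium and the nervous system, was measured at 6.43, 7.56 and 8.39 CPM under LGK974 and at 5.83, 4.26 and 6.36 under DMSO. All 3 LGK974 values lay above the DMSO values, the lowest by a narrow margin, and the log2 fold change of 0.44 (SE 0.235, unadjusted p = 0.0966, adjusted p = 0.395, edgeR) missed the threshold. In that lowest library, LGK974 replicate 1, retained-intron transcripts held 38.0% of the Ephb3 counts and coding transcripts 62.0%. In the other libraries retained-intron transcripts held 5.28 to 10.4%. Whether the groups stay apart on coding counts alone was not tested. Ephb4 (chromosome 5, 137350109 to 137378669, plus strand), the receptor of venous endothelium, stood at 27.0, 28.0 and 33.7 CPM against 19.5, 30.2 and 32.5. Only DMSO replicate 1 was lower than the rest, and the fold change of 0.11 (SE 0.216) turned to −0.07 (SE 0.158) without it. Ephb6 (chromosome 6, 41605482 to 41620509, plus strand), an Eph receptor without kinase activity, gave 1.70, 1.47 and 2.30 CPM against 1.86, 1.05 and 0.811, a log2 fold change of 0.55 (SE 0.486) that was 0.98 (SE 0.412, unadjusted p = 0.0432, edgeR) without DMSO replicate 1.

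The ephrin-A ligands are held on the membrane by a lipid anchor. Efna1 (chromosome 3, 89271733 to 89281142, minus strand), an endothelial ligand induced by TNF, was the most abundant of the 5 and was close between the groups, at 5.42, 8.15 and 7.47 CPM under LGK974 and 7.34, 8.38 and 8.20 under DMSO (log2 fold change −0.19, SE 0.218, adjusted p = 0.672, edgeR). Efna5 differed by −0.00 (SE 0.180), the smallest difference of the 39 genes. Efna2 (chromosome 10, 80179482 to 80190010, plus strand), known from the visual system, stood at 0.565, 1.18 and 1.22 CPM against 0.528, 0.807 and 0.860, a fold change of 0.43 (SE 0.615). Efna3, which lies 32756 bases from Efna1 on chromosome 3, and Efna4, a further 10424 bases from Efna3, had 0 to 34 counts in a library and standard errors of 1.17 and 1.68.

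Efna1 has 2 annotated starts that the transcript counts could tell apart. Both promoter windows are shown because the data bear on which start was used, from 250 bases before to 50 after the start site in RefSeq on GRCm38.p6, read on the minus strand, with the first transcribed base in capitals.
Efna1 upstream start, chr3:89280902-89281201: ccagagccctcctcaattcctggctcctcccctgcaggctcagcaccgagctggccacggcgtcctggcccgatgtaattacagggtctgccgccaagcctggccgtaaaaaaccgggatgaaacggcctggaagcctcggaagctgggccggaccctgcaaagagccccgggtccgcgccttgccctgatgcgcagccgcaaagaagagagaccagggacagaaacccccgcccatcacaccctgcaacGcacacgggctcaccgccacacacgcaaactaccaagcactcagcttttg
Efna1 downstream start, chr3:89279596-89279895: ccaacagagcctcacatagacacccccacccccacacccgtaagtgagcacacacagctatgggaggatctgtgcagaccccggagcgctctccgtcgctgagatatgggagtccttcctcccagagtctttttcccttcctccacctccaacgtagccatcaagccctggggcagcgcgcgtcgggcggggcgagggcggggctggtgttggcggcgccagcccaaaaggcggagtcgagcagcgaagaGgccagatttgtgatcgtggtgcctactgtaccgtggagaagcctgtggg
The downstream start at position 89279645 belongs to a transcript of 1480 bases that held 86.7, 89.0 and 91.3% of the gene's estimated counts under LGK974 and 89.7, 88.2 and 93.5% under DMSO. A transcript of 1632 bases, whose start in the annotation lies 1497 bases upstream and 191 bases beyond the upstream RefSeq start, held the other 6.5 to 13.3%. The windows were similar in base composition, with 63.7% and 63.3% G or C beside a median of 52.7% over 32851 promoter windows. The downstream start was thus the main one in each of the 6 libraries, and the groups overlapped.

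All 3 ephrin-B ligands, which span the membrane and signal into their own cell, had a log2 fold change below 0. Efnb3 (chromosome 11, 69554092 to 69560205, minus strand), known as a midline barrier to axons, was measured at 6.31, 9.74 and 2.79 CPM under LGK974 and at 10.9, 14.2 and 16.5 under DMSO. Every LGK974 mouse was below every DMSO mouse, and DMSO replicate 1 was the lowest of its group. The log2 fold change was −1.14 (SE 0.417, unadjusted p = 0.0263, adjusted p = 0.368, edgeR), and −1.27 (SE 0.419, unadjusted p = 0.0154) without DMSO replicate 1. It was −0.73 without LGK974 replicate 3. Efnb3 was therefore the 1 gene with an unadjusted p under 0.05 in the lower direction both with and without that library. It has a single annotated transcript in these files, so isoforms do not enter its value.

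Efnb1 (chromosome X, 99136130 to 99148991, plus strand), a ligand of boundaries in the embryo, gave 7.13, 8.85 and 11.2 CPM against 8.37, 11.7 and 16.2, a difference of −0.42 (SE 0.283) and of −0.61 (SE 0.233, unadjusted p = 0.0291, edgeR) without DMSO replicate 1, but of −0.05 without DMSO replicate 3. Efnb2 (chromosome 8, 8617434 to 8661242, minus strand), the arterial ligand, was close at 18.2, 18 and 20.8 CPM under LGK974 and 17.3, 21.9 and 23.1 under DMSO, with −0.13 (SE 0.163). The cardiomyocyte markers also had a lower mean under LGK974. Their sum was 43173, 59720 and 42505 CPM under LGK974 and 47979, 60215 and 66128 under DMSO, with DMSO replicate 3 the highest library for these markers and for Efnb1, Efnb2 and Efnb3. The median log2 fold change of the 12 markers was −0.39, and −0.50 without DMSO replicate 1. With all 6 libraries 11 of the 12 were below 0, and 0 of these had an unadjusted p under 0.05. Actc1 went the other way, at 0.86 (unadjusted p = 0.0251, edgeR). Within the LGK974 group Efnb3 followed the order of the marker sum, while Efnb1 and Efnb2 were highest in replicate 3, where the sum was lowest. The part of cardiomyocyte content in these values was not tested.

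The Slit ligands were led by Slit2 and Slit3, and neither passed the test. Slit2 (chromosome 5, 47983138 to 48307733, plus strand) gave 25.3, 24.5 and 23.8 CPM under LGK974 and 25.4, 17.2 and 28.7 under DMSO, so the 3 LGK974 values lay inside the DMSO range (log2 fold change 0.05, SE 0.201, adjusted p = 0.919, edgeR). Slit3 (chromosome 11, 35121224 to 35708507, plus strand) ranged from 15.4 to 29.4 CPM and from 11.7 to 27.4, a fold change of 0.15 (SE 0.341). Slit1 (chromosome 19, 41600257 to 41743665, minus strand), the Slit of the nervous system, was under 1 CPM in 5 of 6 libraries and at 1.96 in DMSO replicate 1, and its fold change of −0.82 (SE 0.983) became 0.77 (SE 0.763) without that library.

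Of the Robo receptors, the endothelial one was close between the groups and Robo2 and Robo3 had lower means under LGK974. Robo4 (chromosome 9, 37401897 to 37415115, plus strand) stood at 18.5, 21.5 and 24.3 CPM against 19.0, 22.6 and 25.7, a log2 fold change of −0.07 (SE 0.176). Robo3 (chromosome 9, 37415669 to 37433246, minus strand), which lets axons cross the midline, lies 553 bases from Robo4 with their ends facing each other. It had 0.306, 0.429 and 0.438 CPM under LGK974 and 1.58, 1.49 and 0.491 under DMSO, without overlap, and a fold change of −1.60 (SE 0.702, unadjusted p = 0.0532, adjusted p = 0.368, edgeR) from 20 to 72 counts in a library. Its neighbor Robo4 thus had about the same level in both groups, while Robo3 did not exceed the 90th percentile of the silent families in any library. Robo2 (chromosome 16, 73891839 to 74411825, minus strand), an axonal receptor also known from the developing heart, gave 2.32, 1.47 and 1.64 CPM against 9.73, 4.30 and 1.96, or −1.55 (SE 0.559, unadjusted p = 0.0248, edgeR) and −0.76 (SE 0.404) without DMSO replicate 1. Robo1, the broadly expressed Robo, ranged from 10.3 to 14.3 and from 8.77 to 17.3 CPM.

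Ntn1 and Neo1, the most abundant ligand and receptor of all 39 genes, were lower on average under LGK974. Ntn1 (chromosome 11, 68209364 to 68400823, minus strand) stood at 44.9, 56.8 and 36.2 CPM under LGK974 and at 37.4, 59.4 and 91.0 under DMSO. Its groups overlapped through DMSO replicate 1, and DMSO replicate 3 was far above the rest. The difference was −0.45 (SE 0.325, adjusted p = 0.501, edgeR), and −0.70 (SE 0.248, unadjusted p = 0.0219) without DMSO replicate 1, but 0.03 without DMSO replicate 3. Neo1 (chromosome 9, 58874687 to 59036441, minus strand), which also binds repulsive guidance molecules and takes part in BMP signaling, gave 34.5, 46.1 and 38.4 CPM against 42.2, 50.9 and 64.5, or −0.41 (SE 0.203, unadjusted p = 0.0821, adjusted p = 0.380, edgeR). Without DMSO replicate 1 its groups did not overlap and the value was −0.53 (SE 0.184, unadjusted p = 0.0200), and without DMSO replicate 3 it was −0.13. DMSO replicate 3 was again the highest library for Ntn1 and Neo1, as it was for the cardiomyocyte markers above, and this was not tested further. Ntn4 (chromosome 10, 93640681 to 93747207, plus strand), a netrin of basement membranes, was the 1 netrin above 0, at 7.99, 10.5 and 15.3 CPM against 8.50, 5.17 and 9.68 (0.54, SE 0.318). Ntn3 and Ntn5, whose exons overlap those of Tbc1d24, BC028777 and Sec1, were at about 1 CPM or less in every library, and their values are uncertain.

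Unc5b (chromosome 10, 60762593 to 60831581, minus strand), the netrin receptor of endothelial tip cells and of macrophages, had the smallest p among the higher genes. It was measured at 25.6, 18.3 and 39.1 CPM under LGK974 and at 11.1, 16.6 and 19.6 under DMSO. LGK974 replicates 1 and 3 lay above all DMSO values, and LGK974 replicate 2 lay below DMSO replicate 3. The log2 fold change was 0.81 (SE 0.314, unadjusted p = 0.0331, adjusted p = 0.368, edgeR), and 0.63 (SE 0.291, unadjusted p = 0.0625) without DMSO replicate 1. It was 0.55 without LGK974 replicate 3. Its longest protein-coding transcript held 68.2 to 89.4% of its counts in all libraries. Its RefSeq promoter window is shown as that of the 1 gene with an unadjusted p under 0.05 in the higher direction. It was read from GRCm38.p6 on the minus strand, has 69.7% G or C, and carries the first transcribed base in capitals.
Unc5b, chr10:60831532-60831831: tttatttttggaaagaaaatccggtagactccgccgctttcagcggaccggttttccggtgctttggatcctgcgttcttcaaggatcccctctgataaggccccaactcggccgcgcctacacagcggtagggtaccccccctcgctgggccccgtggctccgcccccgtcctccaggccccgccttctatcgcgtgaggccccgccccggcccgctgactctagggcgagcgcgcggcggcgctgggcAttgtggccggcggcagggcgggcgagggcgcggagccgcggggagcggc

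The other netrin receptors were low. Dcc, the attractive receptor of axons, had 1.99, 1.08 and 1.63 CPM under LGK974 and 13.3, 2.98 and 1.35 under DMSO. Its DMSO replicate 3 lay inside the LGK974 range, and the log2 fold change of −1.90 (SE 0.778, unadjusted p = 0.0411, edgeR) became −0.44 (SE 0.449) without DMSO replicate 1. Unc5c and Unc5d had the same order of libraries in the DMSO group, at 19.1, 7.61 and 3.39 CPM and at 8.85, 3.64 and 1.35 CPM. The silent families had this order too, with median CPM of 5.72, 1.78 and 0.872 in DMSO replicates 1, 2 and 3 and of 1.25, 0.970 and 0.752 under LGK974. When a background set by the silent families was taken off each gene's counts, the log2 fold changes were −1.99 for Dcc, −1.58 for Epha5, −1.48 for Epha3 and −1.24 for Robo2. The tested silent families themselves had a median of −1.69 over 986 genes before this step and of −1.69 over 668 genes after it. The filter of at least 10 counts in at least 3 libraries was applied again after the step, so these medians cover different genes. They cannot show how much of the difference between groups the step removed. The part of background in the values of these receptors was not tested. The median of the guidance genes still tested was −0.08 beside 0.00 for all genes. Groups did not overlap for 2 higher and 3 lower genes on these counts, beside 13.1% and 9.19% of all genes.

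**Figure D3:**
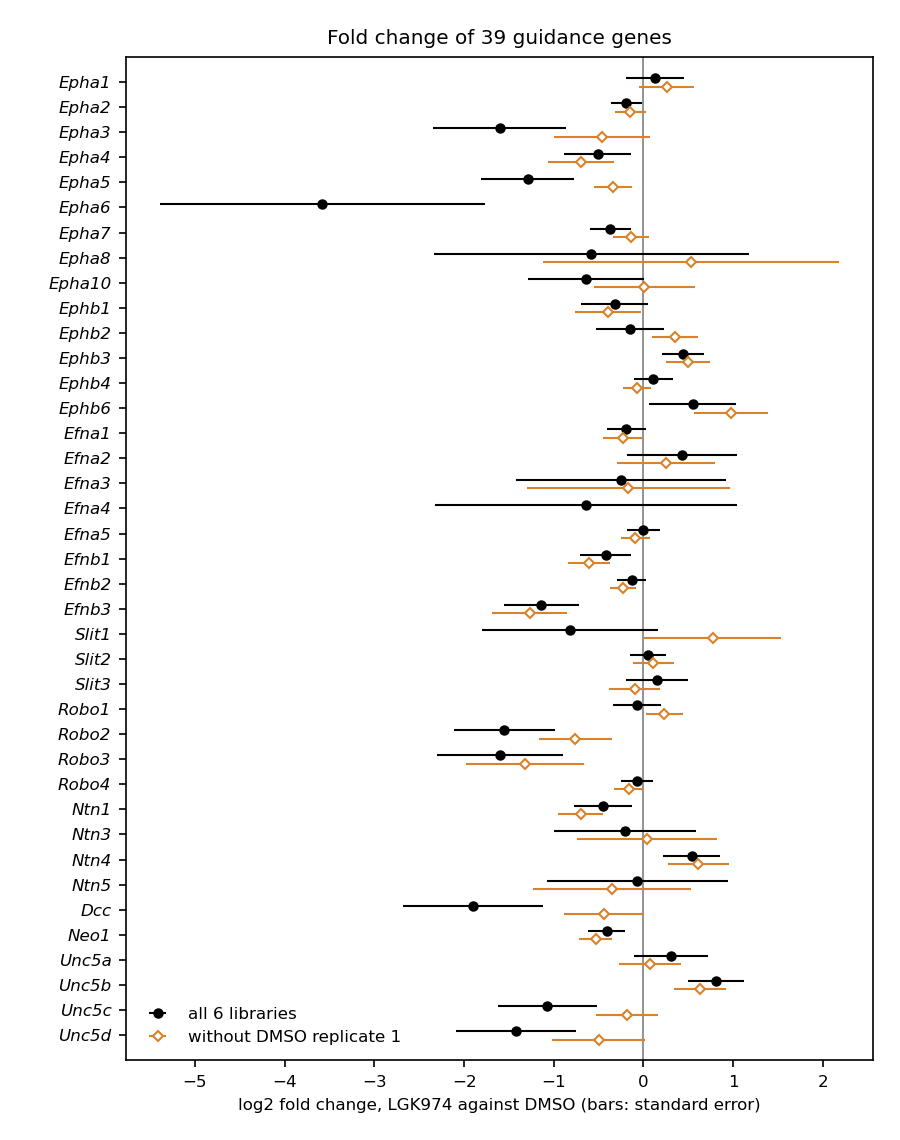
Log2 fold change of LGK974 against DMSO for the 39 guidance genes from edgeR, with standard errors, for all 6 libraries (black) and without DMSO replicate 1 (orange). Epha3, Epha5, Robo2, Dcc, Unc5c and Unc5d move towards 0 without that library, while Efnb3 (−1.14 and −1.27) and Unc5b (0.81 and 0.63) stay apart from it.

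The vascular genes were also read within each library, which sets them against each other or against the endothelial content of the same tissue. The log2 ratio of Efnb2 to Ephb4 TPM was −0.63, −0.21 and −0.09 under LGK974 and 0.34, −0.56 and −0.43 under DMSO. The groups overlapped and the means differed by −0.09 (exact two-sided permutation p = 0.8), and 3 mice against 3 cannot give a p below 0.1. With CPM in place of TPM, in which counts are not divided by transcript length, the difference was −0.26 (exact permutation p = 0.1), and the 2 scales thus disagree on whether the groups overlap. Without DMSO replicate 1 the TPM difference was 0.19, of the opposite sign. Against the geometric mean of 12 endothelial markers, Robo4 lay between −1.49 and −1.31 on the log2 scale in all 6 libraries. The difference between groups was −0.03 (exact permutation p = 0.700), and the SD was 0.10 under LGK974 and 0.05 under DMSO, so Robo4 followed the endothelial markers more closely than any of the other 3 genes. Ephb4 differed by 0.14 (exact permutation p = 0.5) and Efnb2 by 0.05 (exact permutation p = 0.9) on this scale. Without DMSO replicate 1 the differences were −0.01 for Robo4, 0.05 for Ephb4 and 0.23 for Efnb2.

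Unc5b was the exception among these genes. Relative to the endothelial markers it stood at −1.61, −2.21 and −1.20 under LGK974 and at −2.57, −2.40 and −2.37 under DMSO, with no overlap and a difference of 0.77 (exact permutation p = 0.1, the smallest that 3 against 3 allows). Without DMSO replicate 1 the difference was 0.71. The endothelial marker sum itself was 802 to 909.7 CPM under LGK974 and 676 to 1007 under DMSO. Marker sums of other cells did differ between the groups. The fibroblast sum was 3636 to 6115 CPM against 1787 to 2615, with 12 of 12 genes above 0, and the monocyte and macrophage sum 624 to 745 against 274 to 424, also with 12 of 12. The fibroblast genes were uneven. Col1a1, Col1a2, Col3a1 and Postn had log2 fold changes of 1.07 to 1.56, while Dcn (0.01), Fbln1 (0.03) and Pdgfra (0.13) were close to 0 and the others lay between. LGK974 replicate 3 had the highest value of both sums and of Unc5b, but the lowest Dcn of the 6 libraries (237 CPM). The part of these cells in Unc5b was not tested.

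**Figure D4:**
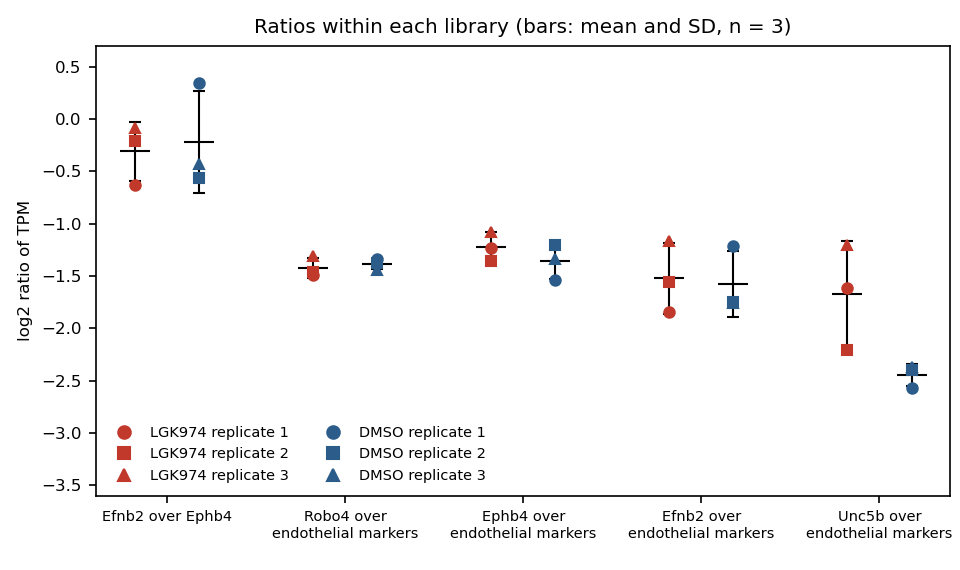
Log2 ratios of TPM within each library for Efnb2 over Ephb4 and for 4 genes over the endothelial markers, with every mouse as a point and the mean ± SD as bars (n = 3). Robo4 lies in a narrow band in both groups, and Unc5b is the 1 ratio in which all LGK974 points are above all DMSO points.

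The signal partners of the 3 systems were examined from lists of other pathway genes. None was called at an adjusted p of 0.05 by edgeR. Of 30 tested partners of Eph and ephrin, 4 were higher at an unadjusted p under 0.05 and 0 lower, with a median log2 fold change of −0.00. Of 24 Slit and Robo partners 6 were higher and 0 lower, with a median of 0.17, and of 25 netrin partners 1 was higher and 0 lower, with a median of 0.08. The background was 6.26% higher and 7.18% lower. Without DMSO replicate 1 the 3 lists had 3, 5 and 0 higher and 1, 0 and 1 lower partners, beside 7.12% and 3.89% of all genes, so the higher netrin partner no longer passed.

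The 3 partners with the smallest p of each list had these values. Tiam1, an exchange factor that activates Rac, stood at 16.1, 15.2 and 22.4 CPM under LGK974 and 10.8, 10.2 and 8.42 under DMSO, without overlap (log2 fold change 0.87, SE 0.206, unadjusted p = 0.00316, adjusted p = 0.368, edgeR). Vav3 gave 21.9, 22.1 and 24 CPM against 14.2, 17.1 and 13.7 (0.59, SE 0.151). Sdcbp, which encodes syntenin and binds the tail of ephrin-B, also did not overlap (0.59, SE 0.163). In the Slit and Robo list Evl (0.72, SE 0.210) and Enah (0.62, SE 0.186), both Ena/VASP actin regulators, and the kinase Pak1 (0.57, SE 0.180) were higher without overlap, with Enah at 416, 352 and 412 CPM against 230.3, 269 and 267. In the netrin list Pitpna, a phosphatidylinositol transfer protein, was at 0.49 (SE 0.196), the GTPase Cdc42 at 0.43 (SE 0.194) and Flrt1, a ligand of Unc5, at −0.64 (SE 0.291). Tiam1, Vav3 and Evl are also expressed by leukocytes, whose 10 markers summed to 185 to 299 CPM under LGK974 and 115 to 147 under DMSO, and this link was not tested. Leaving out DMSO replicate 1 left these 9 genes with the same sign.

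The semaphorins, plexins and neuropilins, the remaining classical guidance family, had a median log2 fold change of 0.04 over 31 tested genes, and 0.03 without DMSO replicate 1. DMSO replicate 1 was the highest library for 25.8% of them. No test of the difference between the families was made.

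Transcript rows showed which isoforms carried the counts, a property that the choice of the genes did not use. With at least 50 counts in every library, 27 genes could be read, and in 18 of them protein-coding transcripts held at least 80% of the counts in every library. Efnb3, Efna1, Efna5, Ntn1, Ntn4 and Unc5d were at 100%. Epha2, the EphA gene with the highest mean TPM, had 59.0, 46.9 and 72.0% on its coding transcript under LGK974 and 36.7, 49.0 and 41.2% under DMSO. A large part of its CPM, and a larger part of its TPM, was thus not assigned to the receptor's coding transcript. Slit2 (33.5%), Robo1 (43.7%) and Robo2 (55.4%) had their lowest coding share in DMSO replicate 1, where retained-intron transcripts held 55.8, 48.0 and 43.3% of their counts.

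Unc5c had the clearest isoform difference, but its TPM did not exceed the 90th percentile of the silent families in any library. Its exons share 118 bases with Gm15688 on the other strand. Its coding share was 57.9, 44.0 and 50.7% under LGK974 and 36.0, 31.2 and 37.9% under DMSO, and the groups did not overlap. Retained-intron transcripts held 42.1, 56.0 and 40.0% under LGK974 and 63.4, 68.8 and 60.0% under DMSO, and LGK974 replicate 3 had a further 9.21% on a transcript annotated for nonsense-mediated decay. Epha1 (94.1, 100 and 96.5% against 84.2, 92.2 and 90.3%) and Epha4 (88.6, 93.6 and 88.3% against 83.7, 6.15 and 85.4%) also had higher coding shares under LGK974 without overlap. The single value of 6.15% for Epha4 in DMSO replicate 2 came with a gene total of 22.9 CPM, between those of the other 2 DMSO libraries. Of the 21 guidance genes in this comparison 3 were higher without overlap and 0 lower, beside 8.40% and 2.61% of 10322 genes. These shares rest on how reads were divided between overlapping transcripts, so they carry that uncertainty.

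**Figure D5:**
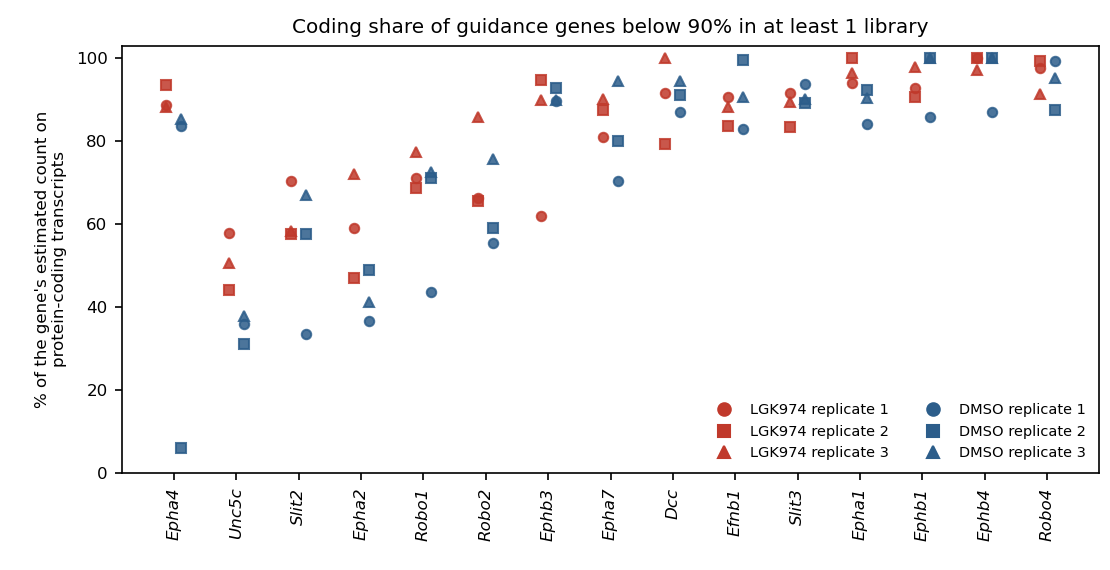
Percent of a gene's estimated count on protein-coding transcripts, for guidance genes below 90% in at least 1 library, with each library as a point. Unc5c is higher in the 3 LGK974 libraries (44.0 to 57.9%) than in the 3 DMSO libraries (31.2 to 37.9%), and DMSO replicate 2 stands alone at 6.15% for Epha4.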

How the data were processed

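RNA sequencing of infarct tissue from 6 mice was analysed. The authors quantified transcripts with Kallisto on an Ensembl GRCm38 index and deposited estimated counts and TPM values of 118489 transcripts per library. The program's version was not given in the sources used here. By the paper's methods, ribosomal RNA was depleted and libraries were made with the TrueSeq RNA Access kit. The part of this preparation in levels between genes and in transcript shares was not tested. Through the GENCODE annotation of GRCm38, 98.6% of transcripts were joined to genes, and their estimated counts were added up by gene, then rounded. Where exons overlap or paralogs are near-identical, Kallisto's division of reads makes a value uncertain. Groups came from the labels. Depth was 41579787 to 80398211 estimated counts per library, and 3 mice per group set the precision.

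The main test was edgeR 4.0.16 (quasi-likelihood, TMM, at least 10 counts in at least 3 libraries, treatment as the only factor, Benjamini-Hochberg over 20094 genes) in R 4.3.3. Between-gene levels used the deposited TPM summed per gene. Ratios had a pseudocount of 0.1 TPM and an exact two-sided permutation test. Silent families were genes with symbols starting Olfr, Vmn1r, Vmn2r or Tas2r. Alternatives used DESeq2 1.42.0, limma 3.58.1 (voom), other scalings and filters, and each mouse left out.

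Of each role class, the 2 genes with the smallest p and the gene with the highest TPM were named, with any other gene that had an unadjusted p under 0.05 or no overlap. Up to 3 genes of each partner list were named. Efna5, Epha1, Epha4, Epha6 and Epha7 and other genes outside this rule were named after their values were seen. The members and lists were chosen with earlier results of these data known. Of the 26 netrin partners, 25 were matched by symbol. Of the 39 genes, 34 had a RefSeq promoter window.

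The script was tested on simulated data for LGK974 against DMSO with 200 of 20094 genes changed. At a log2 fold change of 2 edgeR recovered 48% of them, with 11 false among its 107 calls. At 1 it recovered 0.5%, so changes of 1 were mostly not detectable. The spread of the simulated counts was estimated from all 6 libraries, DMSO replicate 1 included. Tables were made with Python 3.11.15, pandas 2.3.3, NumPy 2.4.6 and SciPy 1.17.1, and plots with matplotlib 3.10.9.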

Additional observations from a re-analysis of the deposited data

How the results depend on the processing

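Of 372 values of the 22 named genes under alternatives, 352 kept their direction and their side of the threshold, 16 changed direction and 4 passed an adjusted p of 0.05, the last all from edgeR without a filter on low counts (Epha5 0.0207, Efnb3 0.0249, Unc5b 0.0462, Dcc 0.0118). Direction was kept throughout by 15 of the 22. The cause of the changes that follow was not tested. Without the filter, 4 genes were called, 2 were higher and 8 lower at an unadjusted p under 0.05, the median was −0.06, groups did not overlap for 2 higher and 1 lower, 1 partner was lower, and Efnb2 (0.00) and Robo4 (0.06) changed direction. DESeq2 gave 8 lower genes and limma-voom 1, with 1 lower partner and Slit1 at 0.05. DESeq2 without DMSO replicate 1, chosen after seeing the data, gave a median of −0.17, 4 lower partners (edgeR 2 without that library and 0 with it), Ephb4 at −0.08, Slit1 at 0.77 and Slit3 at −0.12. Counts less background gave a median of −0.08, 2 higher and 3 lower genes without overlap and 3 lower partners. Counts scaled from TPM gave 0 higher and 4 lower genes without overlap, 3 lower partners and Efnb2 at 0.12. With protein-coding genes only, 2 partners were lower. With CPM in place of TPM, Efnb2 over the endothelial markers was −0.15 and the log2 ratio of Efnb2 to Ephb4 −0.26.

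Leaving out each mouse in turn, 0 to 3 genes were higher and 1 to 8 lower at an unadjusted p under 0.05 (8 without DMSO replicate 3, and 1 without each LGK974 mouse), where 3.23 to 9.14% of all genes were higher and 0.939 to 14.1% lower. Groups did not overlap for 1 to 5 higher and 3 to 8 lower genes, beside 14.5 to 23.5% and 7.78 to 22.6% of all genes, and the median ranged from −0.40 (without DMSO replicate 2) to −0.06 (without DMSO replicate 3). Partners numbered 6 (without LGK974 replicate 3) to 11 higher and 0 to 5 (without DMSO replicate 3) lower. The ratio of Efnb2 to Ephb4 differed by −0.26 to 0.19, Efnb2 over the endothelial markers by −0.13 to 0.23, and Robo4 over them by −0.09 to 0.00. Fold changes ranged from −0.07 to 0.35 for Ephb4, −0.23 to 0.06 for Efnb2, −1.34 to 0.77 for Slit1, −0.10 to 0.57 for Slit3, −0.15 to 0.33 for Slit2, −0.16 to 0.15 for Robo4 and −0.70 to 0.03 for Ntn1.

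The replicate numbers are shared between the groups. Deviations of same-numbered mice correlated at 0.475, −0.048 and 0.391, and those of differently numbered mice at −0.518 to 0.1. So few mice cannot settle whether the numbers pair them, and the main test had treatment as its only factor. With the replicate block edgeR called 0 genes at an adjusted p of 0.05, the median was −0.16 and 1 partner was lower. Low counts limit Epha6, Epha8, Efna3, Efna4, Ntn5 and Slit1, which had under 10 counts in at least 1 library.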
